A study of Mus musculus with 8 samples.

Results

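Brown adipose tissue (BAT) burns lipid for heat in its adipocytes, and around them lie fibroblasts, adipocyte progenitors and the mural cells (pericytes and smooth muscle) that wrap its vessels. The genes described here mark those supporting cells. They are 10 named genes among the 31053 Ensembl genes of the count table, chosen by name for the cells they mark, with earlier results of these data known: Pdgfra, Dpp4, Pi16, Cd34, Ly6a, Thy1 and Dlk1, used to find fibroblasts and progenitors, and Pdgfrb, Acta2 and Rgs5, used to find mural cells. All 10 were found in the table. They were measured in BAT of 4 WT mice and of 4 ATGLKO mice, which the study also calls Ucp1Δ/Δ and made by crossing mice with a floxed Pnpla2 gene to mice that express Cre recombinase from Ucp1.

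Both groups are labelled as C57BL6/J mice of 10 weeks, and the study used males, although it gives a younger age in the legend of this comparison. Pnpla2 encodes ATGL, the lipase that starts the breakdown of stored triglyceride. The Ucp1 driver limits the deletion to adipocytes that express Ucp1, so the fibroblasts, progenitors and mural cells were not themselves the targeted cells, and despite the name Ucp1Δ/Δ the deleted gene is Pnpla2. The labels say no more of the WT mice than their genotype, so whether they carried the floxed allele or Cre is not given. Libraries of total RNA (NEGEDIA Digital mRNA-seq) were sequenced as single-end reads of 75 cycles.

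PDGFRα and PDGFRβ are receptor tyrosine kinases for platelet-derived growth factors. The former is carried by fibroblasts and by fibro-adipogenic progenitors, from which adipocytes can form, and the latter by mural cells and also by many fibroblasts. In adipose tissue, DPP4 and PI16 are known from interstitial progenitors of the connective tissue between lobules, whereas DLK1 is known from preadipocytes and restrains their differentiation. CD34, SCA-1 (the product of Ly6a) and THY1 are surface proteins used to sort adipose progenitors, but endothelial cells also carry CD34 and SCA-1, and T cells also carry SCA-1 and THY1.

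The depth was 2017697 to 3115956 counts per WT library and 2240612 to 2941799 per ATGLKO library, and mitochondrially encoded genes took between 38.4% and 45.6% of them. WT replicate 4 had the 45.6%, against 38.4% to 39.3% in the other WT mice. Levels are given as CPM, counts scaled to a common library total after TMM adjustment. At this depth 3 counts, the limit that a count of 0 allows, correspond to 0.933 to 1.53 CPM, which covers counting error only. Pnpla2 fell from 2913 ± 191 CPM (SD, n = 4) in WT to 474 ± 59.2 CPM (SD, n = 4) in ATGLKO mice, and each ATGLKO mouse lay below each WT mouse. The cell type label of the samples is stromal vascular fraction, the cells left after adipocytes are removed. The brown adipocyte markers go against that label: the summed CPM of Ucp1, Cidea, Plin1 and 7 others was 7998 to 17904 in WT and 5966 to 9429 in ATGLKO mice, and none was at 0 in all mice. The libraries are therefore described here as BAT.

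Of the 10 genes, 8 had enough counts to be tested. Pdgfra, Pdgfrb, Cd34, Ly6a, Thy1 and Acta2 were higher in ATGLKO than in WT mice, Pi16 and Rgs5 had no call, and 0 were lower (edgeR's quasi-likelihood test, Benjamini-Hochberg adjusted p under 0.05 over the 8930 genes tested). The count of 0 lower also held at an unadjusted p under 0.05, and with DESeq2 and limma. Among all genes tested, 1191 (13.3%) were called higher and 681 (7.63%) lower, or 1478 and 404 with scaling by total counts only. The median log2 fold change (log2FC) of the 8 was 1.16, against -0.01 over all genes tested. Pdgfra, Pdgfrb, Pi16 and Thy1 reached the filter's level, 10 counts at the median depth, in fewer than 4 WT mice. The filter asks for 4 mice, so they passed with the help of the ATGLKO mice. Neither the share called among the 8 nor their median log2FC is therefore a measure of the group. In Cd34, Ly6a and Acta2 every ATGLKO mouse lay above every WT mouse, a pattern seen in 14.4% of all genes tested. A two-sided exact permutation test on log2 CPM per mouse gave these 3 genes an unadjusted p of 0.029, the smallest for 4 mice against 4. The same test gave 0.057 for Pdgfra and for Thy1, 0.086 for Pdgfrb, 0.11 for Rgs5 and 0.83 for Pi16. A bulk library cannot tell a larger number of cells of a type from more RNA per cell, and this holds for each gene below.

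**Figure D1:**
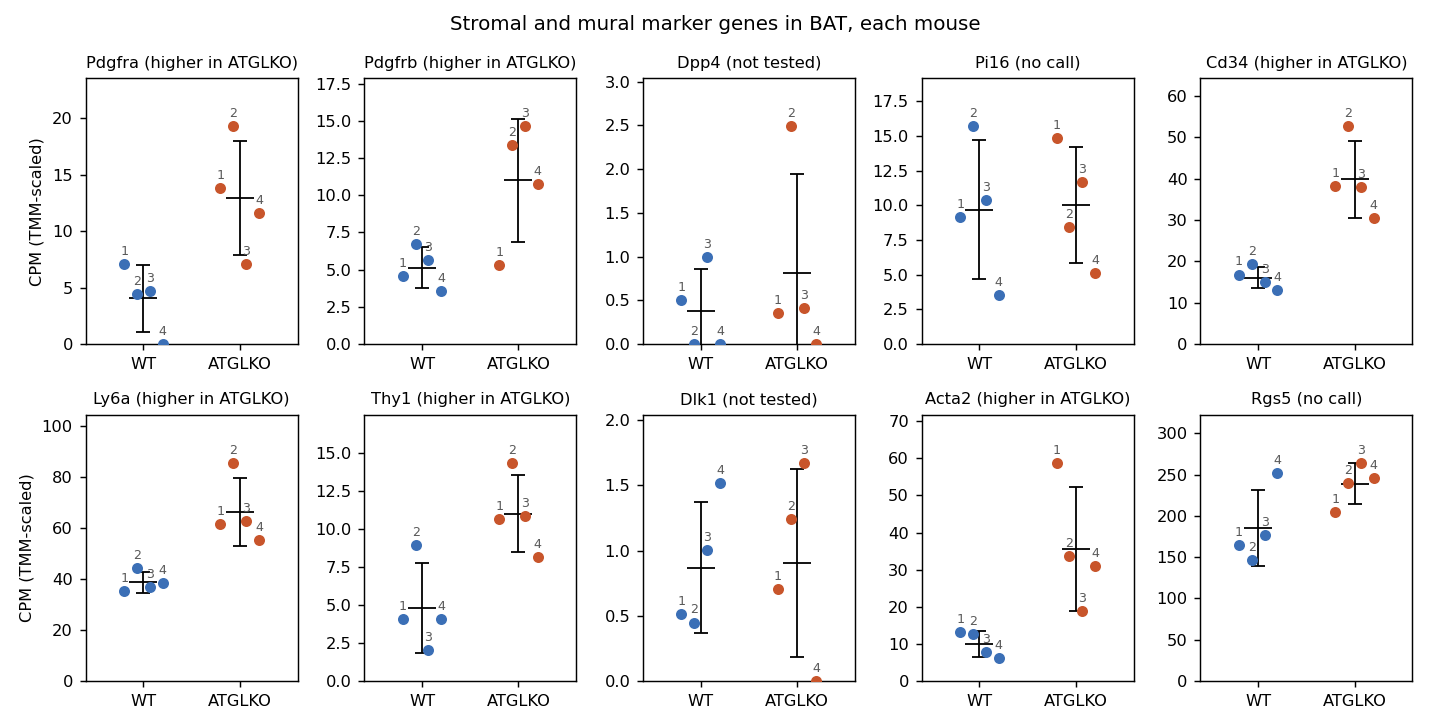
Expression level of the 10 stromal and mural marker genes in BAT, in CPM on a linear axis from 0, in 4 WT (blue) and 4 ATGLKO (orange) mice. Each point is a mouse with its replicate number, and the black bar and whiskers are the mean and SD. The ATGLKO points of Cd34, Ly6a and Acta2 all lie above the WT points, those of Pdgfra, Pdgfrb and Thy1 overlap the WT points by their lowest mouse, and Pi16 and Rgs5 overlap more widely.

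Pdgfra (ENSMUSG00000029231, mm10 chr5:75152292-75198215, plus strand, protein coding) encodes the receptor that defines fibro-adipogenic progenitors. Its level was 7.14, 4.48, 4.68 and 0 CPM in WT replicates 1 to 4, and 13.8, 19.3, 7.10 and 11.6 CPM in ATGLKO replicates 1 to 4. The 0 stands for no read in WT replicate 4, which allows up to 1.52 CPM. The lowest ATGLKO mouse, replicate 3, lay just under the highest WT mouse, replicate 1, and the other 3 ATGLKO mice lay above all WT mice. The log2FC was 1.66 (SE 0.48, 95% interval 0.63 to 2.68, adjusted p = 0.023 from edgeR). These values rest on 38 counts over the 4 WT mice and 145 over the 4 ATGLKO mice. Without ATGLKO replicate 1 or ATGLKO replicate 2 the adjusted p from edgeR became 0.052 and 0.096, with log2FC of 1.64 and 1.40. With limma on the deposited log2 values the log2FC was 2.05 and the adjusted p 0.053. Without WT replicate 4, the mouse at 0, the log2FC was 1.28 and the adjusted p was 0.018. Exons of the antisense genes Gm42802 and Gm42803 overlap those of Pdgfra, and 4.05% of its 75-base windows match them. Gm42802 had 0 counts in all mice, but whether the counting used strand is not given in the sources used here.

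Of the 8 markers tested, Cd34 had the smallest adjusted p. Cd34 (ENSMUSG00000016494, chr1:194938819-194961279, plus strand) encodes a surface sialomucin. Its level was 16.8, 19.3, 15.0 and 13.2 CPM in WT replicates 1 to 4, and 38.2, 52.6, 38.0 and 30.5 CPM in ATGLKO replicates 1 to 4. The genotypes did not overlap, and the means were 16.1 ± 2.6 and 39.8 ± 9.24 CPM (SD, n = 4 each), 2.48-fold apart. The log2FC was 1.31 (SE 0.22, 95% interval 0.85 to 1.77, adjusted p = 0.0004 from edgeR). Cd34 kept its call in 18 of 18 alternatives, with log2FC from 1.15 to 1.46.

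Ly6a (ENSMUSG00000075602, chr15:74994877-74998031, minus strand) encodes SCA-1, a small protein anchored to the outer membrane. Its level was 35.2, 44.4, 36.7 and 38.5 CPM in WT replicates 1 to 4, and 61.6, 85.6, 62.7 and 55.4 CPM in ATGLKO replicates 1 to 4. The genotypes did not overlap, and the spread within WT was the smallest of the 10 genes, with a coefficient of variation of 10.4%. The log2FC was 0.78 (SE 0.18, 95% interval 0.40 to 1.16, adjusted p = 0.0057 from edgeR). Ly6a belongs to a family of near copies. Of its 75-base windows, 6.33% are shared with Ly6c1 or Ly6i, so a part of its reads could have been lost or counted elsewhere. Ly6c1 itself had a level of 95.2 ± 18.7 CPM in WT and 107 ± 11.7 CPM in ATGLKO mice (SD, n = 4 each), with a log2FC of 0.17 and no call (adjusted p = 0.56 from edgeR).

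Thy1 (ENSMUSG00000032011, chr9:44043384-44048579, plus strand) encodes a cell surface glycoprotein of fibroblasts, T cells and neurons. Its level was 4.08, 8.96, 2.0 and 4.05 CPM in WT replicates 1 to 4, and 10.6, 14.3, 10.9 and 8.16 CPM in ATGLKO replicates 1 to 4. WT replicate 2 lay above ATGLKO replicate 4, and the other WT mice lay below all ATGLKO mice. The log2FC was 1.24 (SE 0.37, 95% interval 0.44 to 2.03, adjusted p = 0.028 from edgeR), on 42 counts in WT and 121 in ATGLKO mice. The call was lost without WT replicate 1, 3 or 4 or without ATGLKO replicate 2, where the log2FC lay between 0.92 and 1.17 and the adjusted p from edgeR between 0.051 and 0.097.

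Endothelial cells and T cells carry Cd34, Ly6a or Thy1 as well, and their markers were read in the same libraries. Of 11 endothelial markers, 10 were tested. Tie1, named after its value was seen, was higher and 0 were lower, so 10% were higher, near the 13.3% of all genes tested. The summed level of the 11 was 261 to 334 CPM in WT and 346 to 400 CPM in ATGLKO mice. The genotypes did not overlap in this sum, and no endothelial marker was at 0 in all mice. Of 10 T cell markers, 1 was tested and had no call, 9 had too few counts, and the summed level was 4.34 to 12.7 CPM in WT and 12 to 24.8 CPM in ATGLKO mice. Their part in the changes of Cd34, Ly6a and Thy1 was not tested. Set against Pecam1, an endothelial gene chosen for this after its values were seen, the log2 ratio of Cd34 within a mouse was -1.53 ± 0.61 in WT and -0.83 ± 0.36 in ATGLKO mice (SD, n = 4 each), with overlap (difference 0.70, two-sided exact permutation p = 0.11, adjusted p = 0.23 over the 2 ratios to Pecam1). That of Ly6a was -0.30 ± 0.49 and -0.10 ± 0.31 (difference 0.20, two-sided exact permutation p = 0.54, adjusted p = 0.54).

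Pi16 (ENSMUSG00000024011, chr17:29317680-29330593, plus strand) encodes a secreted peptidase inhibitor and marks fibroblasts of the adventitia and the tissue's connective planes. Its level was 9.18, 15.7, 10.4 and 3.55 CPM in WT replicates 1 to 4, and 14.9, 8.40, 11.7 and 5.15 CPM in ATGLKO replicates 1 to 4. The 2 sets of mice lay within the same range. The log2FC was 0.04 (SE 0.38, adjusted p = 0.96 from edgeR) without a call, with a 95% interval from -0.77 to 0.85, so these counts do not separate no change from changes of the size seen in Ly6a. Its sign turned when WT replicate 4, ATGLKO replicate 1 or ATGLKO replicate 3 was left out. Of the 75-base windows of Pi16, 2.38% match other genes, mostly an antisense gene.

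Dpp4 (ENSMUSG00000035000, chr2:62330073-62412231, minus strand), which encodes a membrane peptidase, had 1, 0, 3 and 0 counts in WT replicates 1 to 4 and 1, 8, 1 and 0 counts in ATGLKO replicates 1 to 4. Dlk1 (ENSMUSG00000040856, chr12:109452823-109463336, plus strand), which encodes the membrane protein of preadipocytes named above, had 1, 1, 3 and 3 counts in WT and 2, 4, 4 and 0 counts in ATGLKO replicates 1 to 4. Except for the 8 counts of Dpp4 in ATGLKO replicate 2 and the 4 counts of Dlk1 in ATGLKO replicates 2 and 3, every value was at or under 3 counts. The filter on low counts removed both genes. In the 2 alternatives that kept them, DESeq2's Wald test and a filter of at least 1 count in any mouse, neither was called, with adjusted p of 0.74 and 0.56 for Dpp4 and 0.99 and 0.98 for Dlk1. The SE of the log2FC was 0.85 to 1.49, so only large differences were detectable at this depth.

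Of the mural genes, Pdgfrb and Acta2 were called higher and Rgs5 had no call. Pdgfrb (ENSMUSG00000024620, chr18:61045150-61085061, plus strand) encodes the receptor by which mural cells are held to vessels. Its level was 4.59, 6.72, 5.68 and 3.55 CPM in WT replicates 1 to 4, and 5.31, 13.4, 14.6 and 10.7 CPM in ATGLKO replicates 1 to 4. ATGLKO replicate 1 lay among the WT mice and the other 3 lay above all of them. The log2FC was 1.07 (SE 0.34, 95% interval 0.34 to 1.80, adjusted p = 0.036 from edgeR), on 48 counts in WT and 118 in ATGLKO mice. This was the least firm of the 6 calls and held in 7 of 17 alternatives. It was lost with DESeq2's Wald test (adjusted p = 0.066), with limma voom (adjusted p = 0.062), with limma on the deposited log2 values (adjusted p = 0.056) and when any mouse other than WT replicate 2 or ATGLKO replicate 1 was left out.

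Acta2 (ENSMUSG00000035783, chr19:34241090-34255590, minus strand) encodes smooth muscle α-actin, the actin of vessel walls and of activated fibroblasts. Its level was 13.3, 12.5, 7.68 and 6.08 CPM in WT replicates 1 to 4, and 58.7, 33.6, 18.8 and 30.9 CPM in ATGLKO replicates 1 to 4. The genotypes did not overlap, and the ATGLKO mice spread widely, with replicate 1 highest and replicate 3 lowest. The log2FC was 1.86 (SE 0.33, 95% interval 1.15 to 2.57, adjusted p = 0.00087 from edgeR), the largest of the 8 genes tested in this fit, and the call held in 18 of 18 alternatives, with log2FC from 1.51 to 2.07. No 75-base window of Acta2 matches another gene exactly, and matches with mismatches were not examined.

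Rgs5 (ENSMUSG00000026678, chr1:169655501-169695813, plus strand) encodes a regulator of G protein signalling and is the customary marker of pericytes. Its level was 165, 146, 177 and 252 CPM in WT replicates 1 to 4, and 205, 240, 264 and 246 CPM in ATGLKO replicates 1 to 4. WT replicate 4 lay among the ATGLKO mice and the other 3 WT mice lay below all of them. The log2FC was 0.37 (SE 0.19, 95% interval -0.03 to 0.76, adjusted p = 0.19 from edgeR) without a call. Leaving out WT replicate 4 gave a log2FC of 0.54 and an adjusted p of 0.031 from edgeR. Rgs5 had the most counts of the 10 genes, 324 to 772 per mouse, and its interval lies below a log2FC of 1.

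Acta2 and Rgs5, the mural pair with the largest and the smallest fold change of the mural genes, are shown with the 250 bases before their annotated starts, because the transcription of smooth muscle actin genes is known to run through CArG boxes, the sites of serum response factor. The sequences are RefSeq's for GRCm38.p6, 5′ to 3′ along the gene's strand, Acta2 on the minus strand at chr19:34255374-34255623 and Rgs5 on the plus strand at chr1:169655251-169655500. CArG boxes, with at most 1 mismatch in the 6 bases of the A/T core, are in capitals. The motif reads the same on both strands and was not searched with other motifs.
Acta2: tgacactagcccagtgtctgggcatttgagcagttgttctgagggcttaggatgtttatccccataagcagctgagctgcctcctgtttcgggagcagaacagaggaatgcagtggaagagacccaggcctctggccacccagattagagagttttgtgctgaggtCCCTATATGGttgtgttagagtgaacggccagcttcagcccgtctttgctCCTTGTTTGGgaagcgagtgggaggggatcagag
Rgs5: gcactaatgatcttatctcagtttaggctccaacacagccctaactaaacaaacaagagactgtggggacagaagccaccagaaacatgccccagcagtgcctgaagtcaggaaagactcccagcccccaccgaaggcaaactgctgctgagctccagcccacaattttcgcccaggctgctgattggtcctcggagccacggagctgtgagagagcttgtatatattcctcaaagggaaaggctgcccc
The stretch before Acta2 holds 2 boxes, whose first bases lie 84 and 34 bases before the RefSeq start, and that before Rgs5 holds 0. Of 32851 upstream stretches of this length, 8.59% hold at least 1 box and 0.670% at least 2. The stretches of Pdgfra, Dpp4, Pi16, Cd34 and Dlk1 also hold 0. Of the 10 genes, 7 matched a RefSeq stretch, and the mural gene Pdgfrb was not among them. The outermost GENCODE start of Acta2, at base 34255590, lies within its stretch. A match is a description of the letters, and occupancy was not measured. A link between the boxes and the fold changes was not tested.

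A ratio within a mouse does not depend on the scaling of the library, so the genes were also set against each other. Pdgfra had been planned as the reference, but it had under 10 counts in WT replicate 4, and Rgs5, the gene with the highest lowest count, took its place. The log2 ratio of Acta2 to Rgs5 was -4.15 ± 0.81 in WT and -2.83 ± 0.81 in ATGLKO mice (SD, n = 4 each), a difference of 1.33 (two-sided exact permutation p = 0.086, adjusted p = 0.13 over 3 ratios). That of Cd34 was -3.45 ± 0.55 and -2.58 ± 0.36, a difference of 0.86 (two-sided exact permutation p = 0.057, adjusted p = 0.13). That of Ly6a was -2.21 ± 0.40 and -1.85 ± 0.30, a difference of 0.36 (two-sided exact permutation p = 0.17, adjusted p = 0.17). All 3 ratios overlapped between genotypes. Unequal changes of these genes relative to Rgs5 were therefore not shown by this test, whose smallest p for 4 mice against 4 is 0.029.

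**Figure D2:**
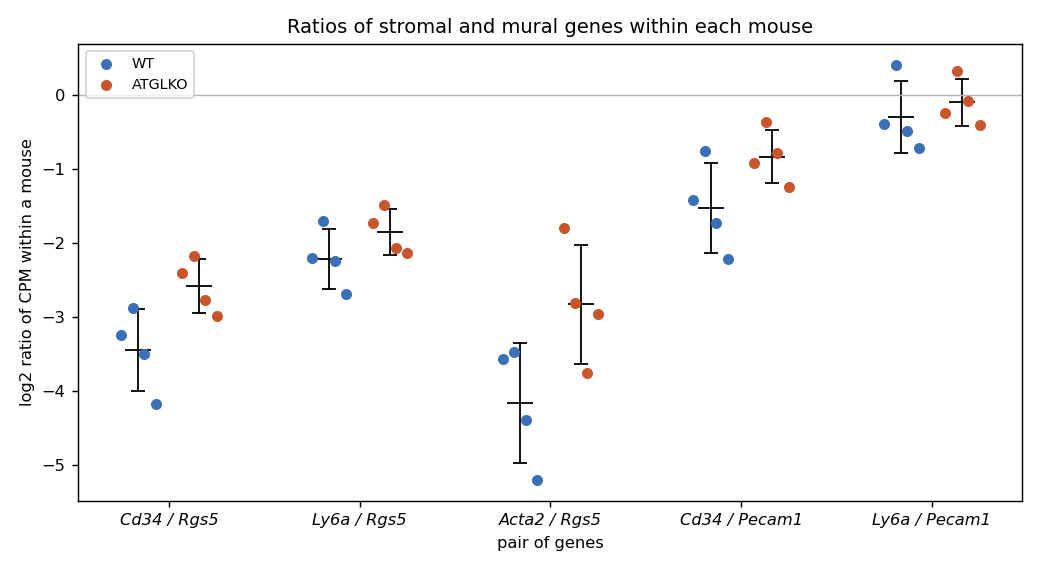
Log2 ratio of CPM between pairs of genes within each mouse, in 4 WT (blue) and 4 ATGLKO (orange) mice, with the mean and SD in black. The means of the ATGLKO mice are higher in all 5 pairs, by 0.20 (Ly6a to Pecam1) to 1.33 (Acta2 to Rgs5), and the genotypes overlap in each.

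The genes were also followed from mouse to mouse within a genotype, as deviations of log2 CPM from the genotype's mean over the 8 mice. The 28 pairs of tested genes had correlations between -0.85 and 0.85, with a median of 0.24 and 20 above 0. All pairs share the library and its depth, and the values are given as a description. Cd34 and Ly6a had the highest value, 0.85. ATGLKO replicate 2 was the highest ATGLKO mouse and WT replicate 2 the highest WT mouse for Cd34, Ly6a and Thy1. Rgs5 had the lowest values, -0.85 with Pdgfra, -0.83 with Pi16 and -0.81 with Acta2. WT replicate 4, with the highest share of mitochondrially encoded counts, was the highest WT mouse for Rgs5 and the lowest for Pdgfra, Pdgfrb, Pi16, Cd34 and Acta2, and the part of that share was not tested. Among 6428 tested genes with a mean of at least 10 CPM, the genes most like each marker over the 8 mice were Capg and Nek6 for Pdgfra (Pearson's r 0.98 and 0.97), Ankmy2 and Raph1 for Pdgfrb (0.99 and 0.94), Rpl36 and Nhp2 for Pi16 (0.99 and 0.99), and Blmh and Tmed9 for Cd34 (0.97 and 0.95). For Ly6a the nearest was Plpbp (0.98). The nearest pair was, for Thy1, Cd52 and Cnp (0.97 and 0.97), for Acta2 Atg3 and Mafk (0.97 and 0.96) and for Rgs5 Ylpm1 and Gigyf1 (0.98 and 0.97). With 8 mice and 6428 genes to choose from, values this high are found for each marker.

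The markers were next set beside 81 other genes of the same cells, in 7 lists by role. Of these, 55 were tested, 28 (50.9%) were higher and 1 (1.82%) was lower in ATGLKO mice (edgeR, adjusted p under 0.05), against 13.3% and 7.63% of all genes tested. Of the 55, 20 reached the filter's level in fewer than 4 WT mice and were tested only with the help of the ATGLKO mice, so neither these shares nor the counts and medians of the lists below are a measure of the lists. The 26 not tested had too few counts, and Tcf21 and Actg2 had none in any mouse.

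Of 14 pan-fibroblast genes, 11 were tested and these were higher (100%, against 13.3% of all genes tested), with a median log2FC of 2.13. Of the 11, Lum, Mmp2 and Pdpn, named after their values were seen, passed the filter with the help of the ATGLKO mice, and the other 8 reached its level in all WT mice. The list had a summed level of 679 to 1113 CPM in WT and 2395 to 3791 CPM in ATGLKO mice. Pcolce, which encodes an enhancer of procollagen processing, rose from 9.96 ± 3.85 CPM to 207 ± 40.4 CPM (SD, n = 4 each), a log2FC of 4.35 (SE 0.26, adjusted p = 1.4e-07). The collagen gene Col3a1 rose from 56.4 ± 23.1 to 376 ± 157 CPM, a log2FC of 2.74 (SE 0.30, adjusted p = 1.2e-05). Serping1, the gene of a complement inhibitor, had a log2FC of 1.67 (SE 0.21, adjusted p = 4.3e-05). The log2FC of the 11 ran from 1.27 to 4.35, on both sides of the 1.66 of Pdgfra, and the differences between genes were not tested. Among 4 tested factors of mesenchymal identity, 1 (25%, against 13.3% of all genes tested), Prrx1, was called higher, and with 4 genes this share is no result about the list. Prrx1, a homeobox gene of limb and adipose mesenchyme, rose from 6.68 ± 2.32 to 31.6 ± 6.76 CPM (SD, n = 4 each), a log2FC of 2.25 (SE 0.26, adjusted p = 2.1e-05). The other 3 had no call, and 6 had too few counts to be tested.

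The interstitial progenitor list held 9 tested genes beside Dpp4 and Pi16. Of these, 5 (55.6%, against 13.3% of all genes tested) were higher and 1 (11.1%, against 7.63%) was lower. The share lower, 1 gene, is near that of all genes and is no result about the list. Of the 9, 5 passed the filter with the help of the ATGLKO mice. Its summed level was 150 to 201 CPM in WT and 269 to 353 CPM in ATGLKO mice. Mfap5, a gene of the microfibrils of elastic fibres, rose from 7.08 ± 4.81 to 59.3 ± 25.0 CPM (SD, n = 4 each), a log2FC of 3.11 (SE 0.40, adjusted p = 4.8e-05). It reached the filter's level in only 2 WT mice. Pcolce2, a relative of Pcolce, had a log2FC of 2.24 (SE 0.25, adjusted p = 1.6e-05), and Clec3b, the gene of tetranectin, one of 1.43 (SE 0.21, adjusted p = 0.00016). Pi16 stayed within its WT range, and the difference between Pi16 and these genes was not tested. Limch1, which encodes an actin-associated protein, fell from 32.7 ± 9.50 to 12.4 ± 6.03 CPM, with a log2FC of -1.41 (SE 0.32, adjusted p = 0.0052).

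In the preadipocyte list, 4 of 7 tested genes (57.1%, against 13.3% of all genes tested) were higher and 0 lower, with 5 not tested. Of the 7, 5 passed the filter with the help of the ATGLKO mice. Fmo2, a flavin monooxygenase, rose from 18.3 ± 7.26 to 55.2 ± 17.1 CPM (SD, n = 4 each), a log2FC of 1.6 (SE 0.27, adjusted p = 0.00058). Cd9, a tetraspanin that macrophages also carry, had a log2FC of 2.84 (SE 0.56, adjusted p = 0.0019), but it reached the filter's level in 0 WT mice and was tested only because the ATGLKO mice were higher. Col15a1, a basement membrane collagen, had a log2FC of 1.35 (SE 0.43, adjusted p = 0.034), but it reached the filter's level in only 1 WT mouse. That mouse, WT replicate 4, had 10.6 CPM, above the 9.91 and 8.16 CPM of ATGLKO replicates 1 and 4. The regulators of brown and white preadipocyte fate in the list, Ebf2 and Zfp423, named after their values were seen, had log2FC of 0.16 (95% interval -0.18 to 0.51) and -0.03 (95% interval -0.82 to 0.75) with no call.

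**Figure D3:**
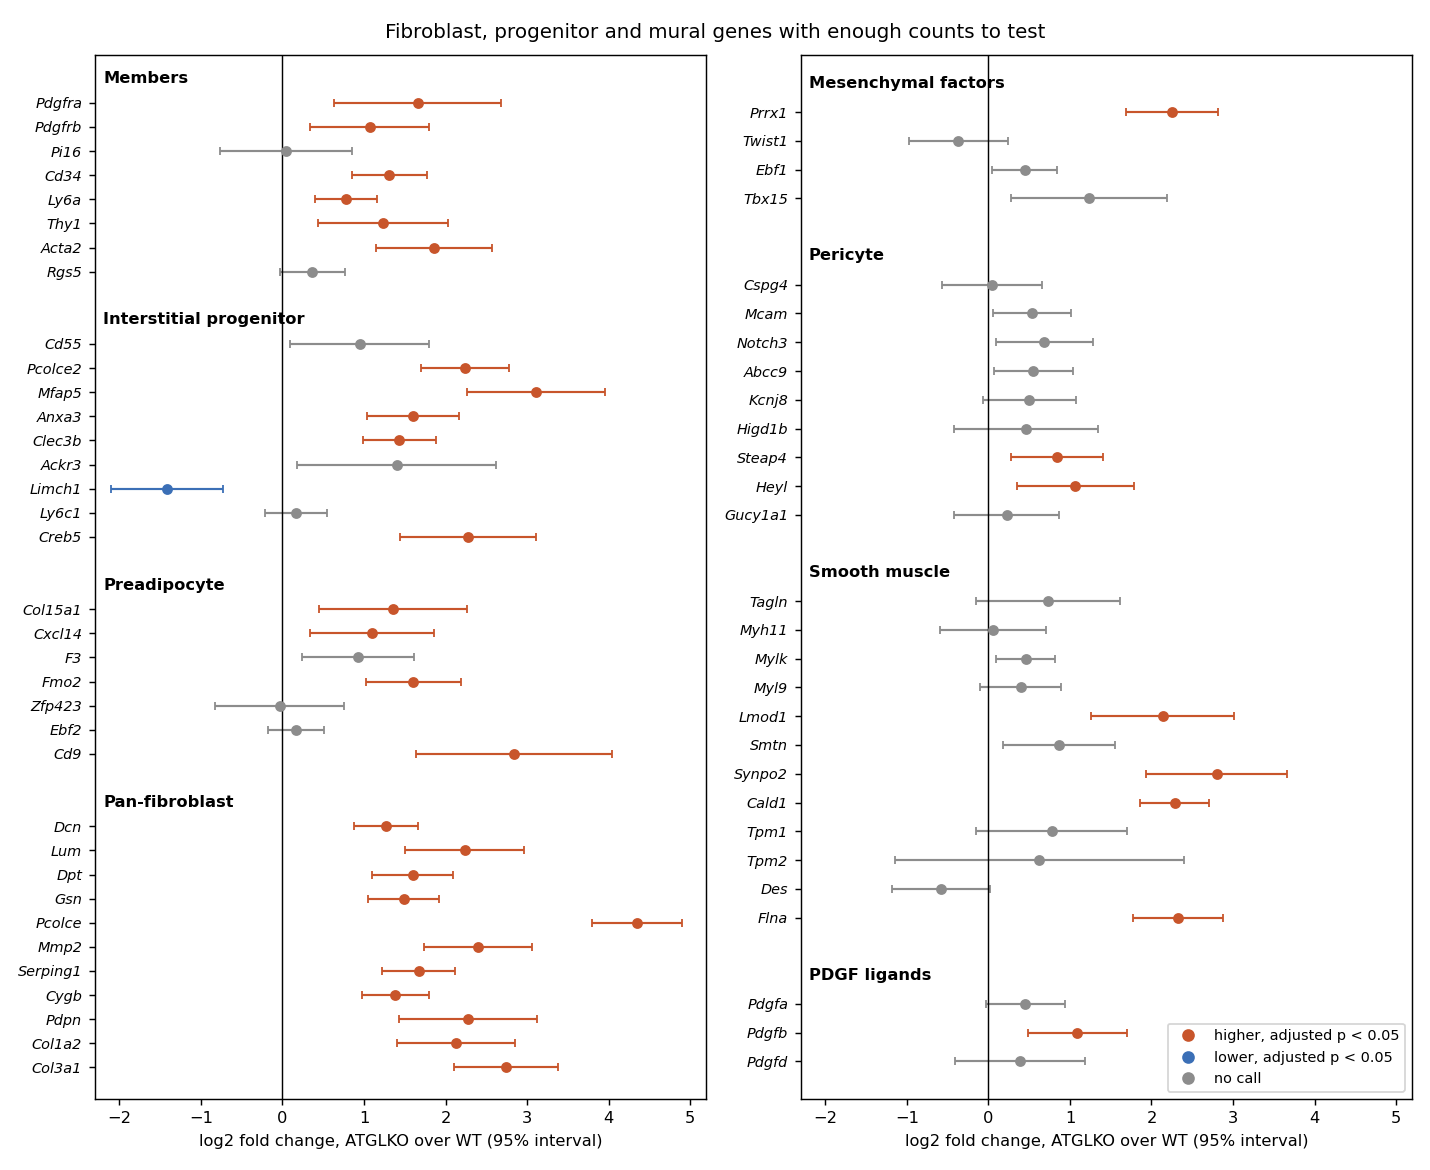
Log2FC of ATGLKO over WT with its 95% interval from edgeR, for the 8 tested marker genes and the 55 tested genes of the 7 lists by role. Orange marks genes called higher, blue lower and grey no call at an adjusted p of 0.05. All 11 pan-fibroblast genes lie right of 0, the pericyte genes lie between 0.04 and 1.07, and Limch1 is the gene called lower.

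Of 9 tested pericyte genes, 2 (22.2%, against 13.3% of all genes tested) were higher and 0 lower, with a median log2FC of 0.54, and 6 were not tested. With 9 genes, this share is near that of all genes and is no result about pericytes. Steap4, a metalloreductase gene, rose from 6.47 ± 0.53 to 11.7 ± 2.55 CPM (SD, n = 4 each), a log2FC of 0.84 (SE 0.27, adjusted p = 0.035), and Heyl, a target of Notch signalling, rose from 21.4 ± 14.2 to 45.9 ± 4.33 CPM, a log2FC of 1.07 (SE 0.34, adjusted p = 0.036). All 9 log2FC were above 0, and the summed level was 91.2 to 133 CPM in WT and 166 to 193 CPM in ATGLKO mice, without overlap.

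Of 12 tested smooth muscle genes beside Acta2, 4 (33.3%, against 13.3% of all genes tested) were higher and 0 lower, and 8 had no call. Of the 12, 4 passed the filter with the help of the ATGLKO mice. The summed level of the list was 209 to 669 CPM in WT and 511 to 1133 CPM in ATGLKO mice, with overlap. Within each genotype its sums ranked the mice as the skeletal muscle sums below did, with WT replicate 1 and ATGLKO replicate 2 highest. The list is therefore not read here as vessel smooth muscle alone, and the part of skeletal muscle in it was not tested. Cald1, which encodes caldesmon, rose from 43.7 ± 7.43 to 213 ± 40.1 CPM (SD, n = 4 each), a log2FC of 2.28 (SE 0.20, adjusted p = 1.4e-06). Flna, the gene of an actin crosslinker found in most cells, had a log2FC of 2.32 (SE 0.26, adjusted p = 1.4e-05). Synpo2, an actin-bundling protein of muscle, had one of 2.80 (SE 0.41, adjusted p = 0.00015), though it reached the filter's level in only 2 WT mice. Lmod1, which encodes a leiomodin of smooth muscle and was named after its values were seen, had a log2FC of 2.14 (SE 0.41, adjusted p = 0.0014), though it reached the filter's level in 0 WT mice. The 8 genes without a call had log2FC from -0.58 to 0.87, among them Myh11, the myosin of differentiated smooth muscle, named after its value was seen, with 0.06 (95% interval -0.59 to 0.70), and Actg2 had no count.

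The ligands of both receptors were examined as well. Pdgfb, which binds PDGFRβ and PDGFRα and is made by endothelial cells among others, rose from 6.63 ± 2.46 to 14 ± 2.74 CPM (SD, n = 4 each), a log2FC of 1.09 (SE 0.28, adjusted p = 0.012). Pdgfa, a ligand of PDGFRα, was at 17.1 ± 2.19 and 23.3 ± 6.95 CPM, a log2FC of 0.45 (95% interval -0.04 to 0.94, adjusted p = 0.19). Pdgfd, a ligand of PDGFRβ, had a log2FC of 0.39 (95% interval -0.41 to 1.19, adjusted p = 0.52), and Pdgfc had too few counts to be tested.

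Markers of some other cells moved with the genotype in the same libraries. Of 10 macrophage markers, 9 (90%, against 13.3% of all genes tested) were higher and 0 lower. Their summed level was 112 to 164 CPM in WT and 1004 to 1601 CPM in ATGLKO mice, and none was at 0 in all mice. Of 10 brown adipocyte markers, 1 (10%, against 13.3% of all genes tested) was higher and 4 (40%, against 7.63% of all genes tested) were lower. The summed levels of this list overlapped. Of 3 tested Schwann and neural markers, 1 (33.3%, against 13.3% of all genes tested), S100b, named after its value was seen, was higher and 0 were lower. The other 2 had no call, 5 had too few counts, and the median log2FC of the 3 was 0.02. The summed level was 119 to 172 CPM in WT and 673 to 893 CPM in ATGLKO mice. Nearly all of it was S100b, so it is no measure of Schwann and neural cells. Mesothelial markers summed to 4.34 to 10.2 CPM in WT and 4.36 to 9.01 CPM in ATGLKO mice, and Upk3b, Wt1 and Krt8 were at 0 in all mice. The part of these cells in the levels of the stromal and mural genes was not tested.

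**Figure D4:**
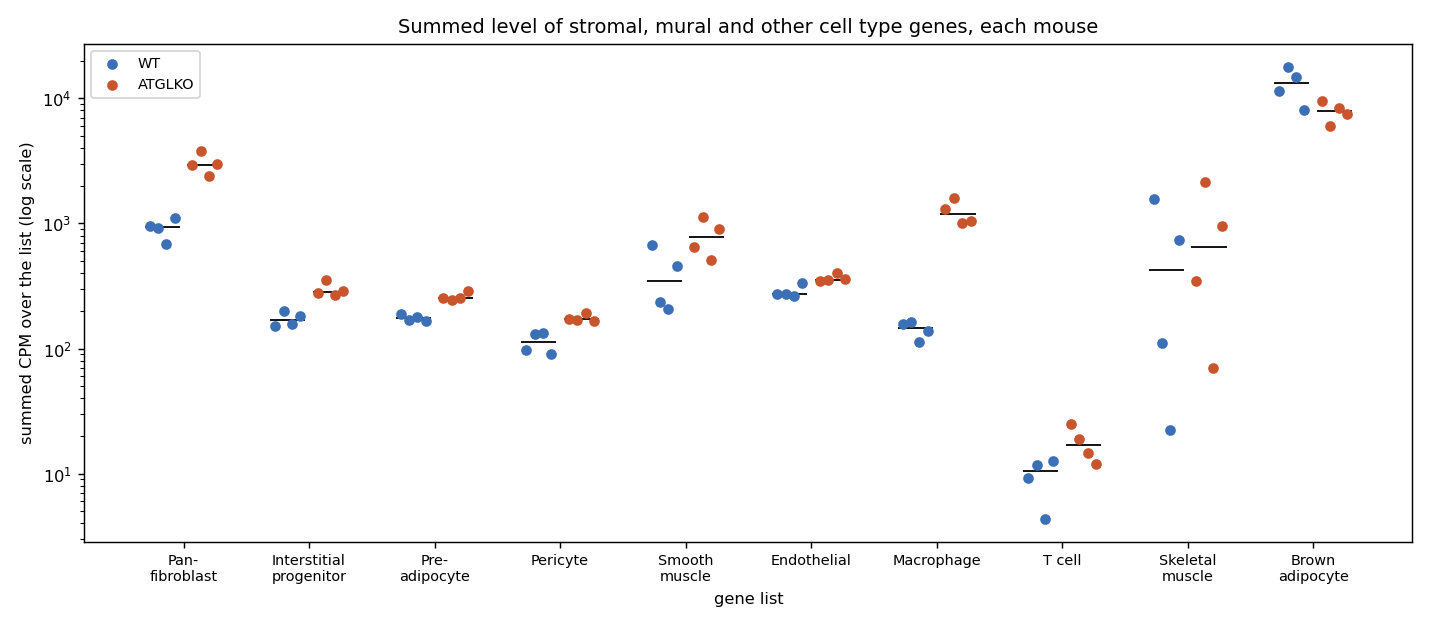
Summed CPM of 5 lists of stromal and mural genes and 5 lists of other cell types in each mouse, on a log axis, with 4 WT (blue) and 4 ATGLKO (orange) mice and the median as a black line. The pan-fibroblast sums, 679 to 1113 in WT and 2395 to 3791 in ATGLKO mice, and the macrophage sums, 112 to 164 and 1004 to 1601, do not overlap, while skeletal muscle spans 22.4 to 1569 within WT alone. The smooth muscle sums overlap and rank the mice of each genotype as the skeletal muscle sums do.

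Skeletal muscle markers varied within each genotype, from 22.4 to 1569 CPM in WT and from 69.8 to 2158 CPM in ATGLKO mice, and 0 of 9 tested were called. The highest sums were those of WT replicate 1 and ATGLKO replicate 2. Without both mice, chosen for this after seeing the data, 2 of the 6 higher calls remained, Cd34 with a log2FC of 1.18 (adjusted p = 0.0070 from edgeR) and Acta2 with one of 2.06 (adjusted p = 0.0056). Pdgfra, Thy1, Pdgfrb and Ly6a then had log2FC of 1.75, 1.04, 0.92 and 0.60 with adjusted p from edgeR of 0.066, 0.17, 0.19 and 0.082. This comparison has 3 mice a genotype, and the loss from fewer mice cannot be told apart from that of the muscle-rich mice.

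**Figure D5:**
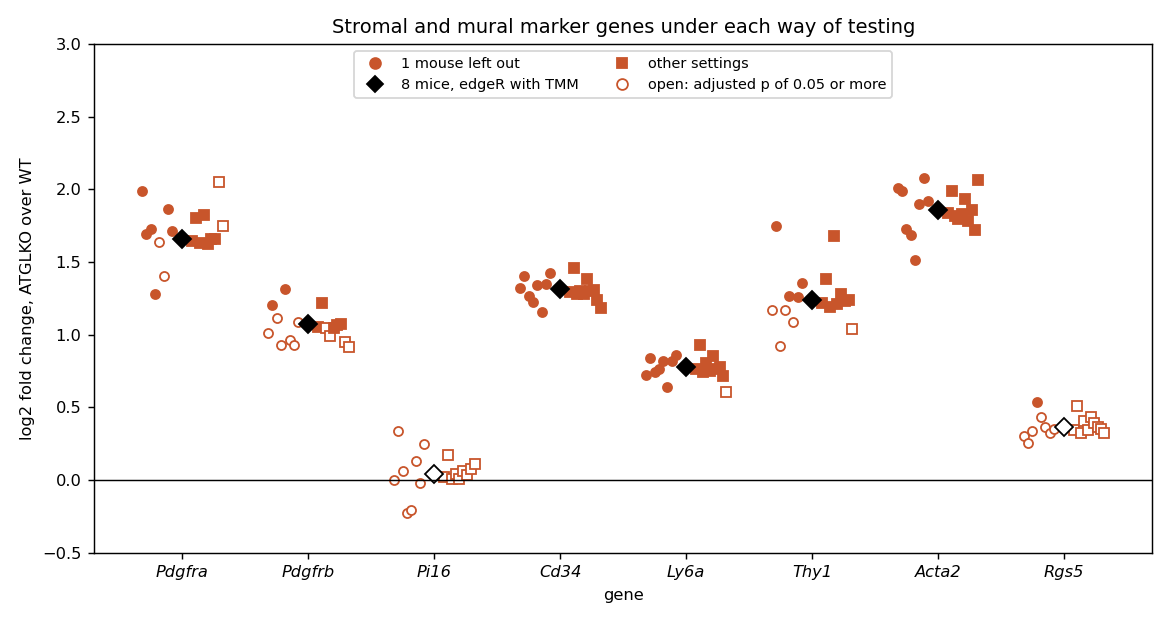
Log2FC of ATGLKO over WT of the 8 tested marker genes under each way of testing. Black diamonds are the reported values, circles leave out 1 mouse each, squares are other scalings, tests, filters and selections, and open symbols have an adjusted p of 0.05 or more. Cd34 and Acta2 are filled throughout, Ly6a has 1 open symbol, Pdgfrb is mostly open, and Pi16 lies on both sides of 0.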

How the data were processed

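The 10 genes and the lists by role were chosen with earlier results of these data known, so no list is independent support for a direction. The authors deposited whole-number counts per Ensembl gene, without normalization, in 1 column per mouse, and log2 values equal to log2(count/factor + 1) with 1 factor per mouse, which served for 1 alternative. The study's methods name bbduk, STAR, HTseq-counts, mm10 and DESeq2, whereas the submitters' processing notes name Trimmomatic, HISAT2, DESeq2 and GRCm38/mm10. Which aligner made the counts, the annotation release and the strand setting are not given in the sources used here. A deposited table of library attributes was not used. Symbols, positions and exons came from GENCODE M21 on mm10, and 31011 of 31053 identifiers had a symbol.

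Genes that passed edgeR's default filter (filterByExpr) were normalized by TMM, and genotype was tested by quasi-likelihood in edgeR 4.0.16 (R 4.3.3) with Benjamini-Hochberg adjustment over 8930 genes at 0.05. Log2 CPM used a prior count of 2, and per-mouse levels and ratios a two-sided exact permutation test over 70 splits. DESeq2 1.42.0 and limma 3.58.1 served as alternatives, with other scalings, filters, a replicate block and each mouse left out. Named were the 10 genes, Pnpla2, the PDGF ligands, up to 3 higher and 3 lower genes per list by smallest adjusted p, the 2 genes nearest to each marker (1 of these genes is not reported here), and others said to be named after seeing values. The chi-square over its degrees of freedom was 5.18 to 27.1 between mice of a genotype, so none was a duplicate. On simulated counts for 8930 genes of this comparison, 57.6% of genes changed by a log2 of 1 and 99.0% of those changed by 2 were recovered, and 6.06% of calls were false. The changed genes were drawn at random from all genes tested, so recovery at the low counts of Pdgfra, Pdgfrb, Pi16 and Thy1 was not measured. Windows of 75 bases were matched exactly against all GENCODE transcripts on both strands. RefSeq upstream sequences were used as given, and no protein sequence was used here.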

Additional observations from a re-analysis of the deposited data

How the results depend on the processing

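Of the 8 markers tested, 6 were called higher. The number was 3 with at least 10 counts in every mouse, a filter that left 4 of them to test, 2 without the 2 mice with the most skeletal muscle counts, and 3 to 6 in the 8 leave-one-out fits, the fewest without ATGLKO replicate 2. It was 4 to 6 in the other alternatives. All genes called higher numbered 746 with at least 10 counts in every mouse and 945 to 1304 with a mouse left out, against 1191. All genes called lower numbered 404 under scaling by the plain totals, 449 under the filter of 10 counts per mouse, 279 without the 2 muscle-rich mice and 400 to 851 with a mouse left out, against 681. Scaling by total counts only moved the median log2FC of all genes by 0.14, and no marker changed its call or direction with it. Pi16 was the marker whose sign turned, and its log2FC ran between -0.23 and 0.34 over the leave-one-out fits (-0.23 without WT replicate 4, -0.21 without ATGLKO replicate 1 and -0.021 without ATGLKO replicate 3). Of 140 values of single markers under alternatives, 116 kept their direction and their side of the threshold, 20 lost the call, 1 gained it and 3 turned. Beyond the number of genes or mice that each setting left, the cause was not tested. Replicate numbers do not pair the mice, which are different animals: same-numbered mice correlated at -0.20 to 0.30 in their deviations from the genotype means. With the replicate block 6 markers and 28 of the other stromal and mural genes were called higher, as without it. Depth limits Dpp4 and Dlk1, which had at most 8 counts in a mouse, and Pdgfra, Pdgfrb and Thy1, which rest on 38 to 48 counts over the WT mice.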
